A study of Mus musculus with 6 samples.

Results

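Lipid metabolism genes outside the drug enzyme families were taken from the authors' deposited list of genes that differed between IL-22-treated and untreated enteroids, organoids that were grown out of crypts of the mouse small intestine. The members are the listed genes annotated with the ontology term lipid metabolic process and not with immune system process. Cytochrome P450, glucuronosyltransferase, carboxylesterase, glutathione transferase, solute carrier, ABC transporter, annexin and TRIM genes were left out by symbol, as were single genes such as Adh1, Fabp2 and Ptgs1 that the rule names. The term was carried by 60 of the 690 listed genes, the immune term removed 5 of them and the symbols removed 12, which left 43 members. The rule for the members used no measured value, although only genes that the authors had already selected as different could enter. It was chosen with earlier results of these data known.

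The small intestine takes up dietary fatty acids, monoglycerides, cholesterol and carotenoids, and its absorptive enterocytes rebuild the fatty acids into triglycerides that leave the cell in chylomicrons. Enterocytes also burn fatty acids in mitochondria and peroxisomes and convert beta-carotene and retinol to retinoic acid. PPAR-alpha, the product of Ppara, is a nuclear receptor that binds fatty acids and switches on genes of their oxidation, and secreted phospholipases and ceramidases cut membrane lipids into signalling molecules.

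The treated cultures received 2 ng/ml recombinant mouse IL-22 (an immune cytokine that signals to epithelium by way of STAT3) for 24 hours after 4 days in differentiation medium, and the control cultures received none. The column header of the authors' deposited table reads 100 ng in place of 2 ng/ml, so the dose is unsettled. There were 2 IL-22 libraries, from 2 wells of 1 mouse, and 4 control libraries, from 2 wells of each of 2 mice. All wells came from C57BL/6J mice without necrotizing enterocolitis, aged 6 weeks by their labels, whereas the protocol names mice of 8 weeks or 7 days. Wells of a mouse are technical replicates by their labels, which leave unsaid whether the IL-22 mouse was also a control mouse, so p-values measure the spread between wells and not between treated animals.

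Levels are given as RPM, the reads that a gene has among 1000000 reads in its library, with no correction for gene length, so levels were compared between groups and not between genes. Inferred total depth was 32466648 and 29876764 reads in the IL-22 libraries and, in the control libraries, 36577357, 35247450, 27416002 and 22648811. Library values below were solved from the deposited means, standard errors and mean read counts, and they are given in order of falling depth because the table does not say which mouse a library came from. The solution was unique for 34 members. For the other 9 the control value is the authors' mean ± SEM over 4 libraries. Folds and adjusted p-values are those of the authors' deposited table, whose p-values were Benjamini-Hochberg adjusted over the 690 listed genes alone. A stricter value, adjusted over 21951 protein-coding genes with each unlisted gene given the largest possible p, is an upper bound. An exact permutation of 2 against 4 libraries cannot give a p below 0.0667. The authors' selection on p forces the IL-22 and control libraries of every listed gene apart, so separation of the groups adds no support below. Since these are whole cultures, fewer cells of a type and less RNA per cell cannot be told apart.

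Most of the listed lipid metabolism genes were lower with IL-22. Of the 43 members, 33 (76.7%) were lower and 10 (23.3%) were higher in the authors' deposited table, where 61.3% of all 690 listed genes were lower and 38.7% were higher. Grouped by the roles used below, the Acot thioesterases, the glycerol and lipase genes, the retinoid and aldehyde enzymes, the sterol and steroid proteins and the genes of eicosanoid breakdown were all lower. The roles were assigned with earlier results of these data known. By ontology term, the higher member Ppt1 also counts under acyl-CoA thioesterase activity. The higher members Lgmn, Adm and Acadl also carry steroid metabolic process. The 10 higher members were 3 phospholipid enzymes, 3 ceramidase or lysosomal genes, 1 oxidation enzyme and 3 genes of hormones or receptors. The median member ratio was -1.24 on the log2 scale, against -1.12 over all listed genes. The median size of the change in the lower direction, 2.65-fold, was close to the 2.70-fold of all lower listed genes, and in the higher direction it was 2.60-fold against 3.15-fold.

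**Figure D1:**
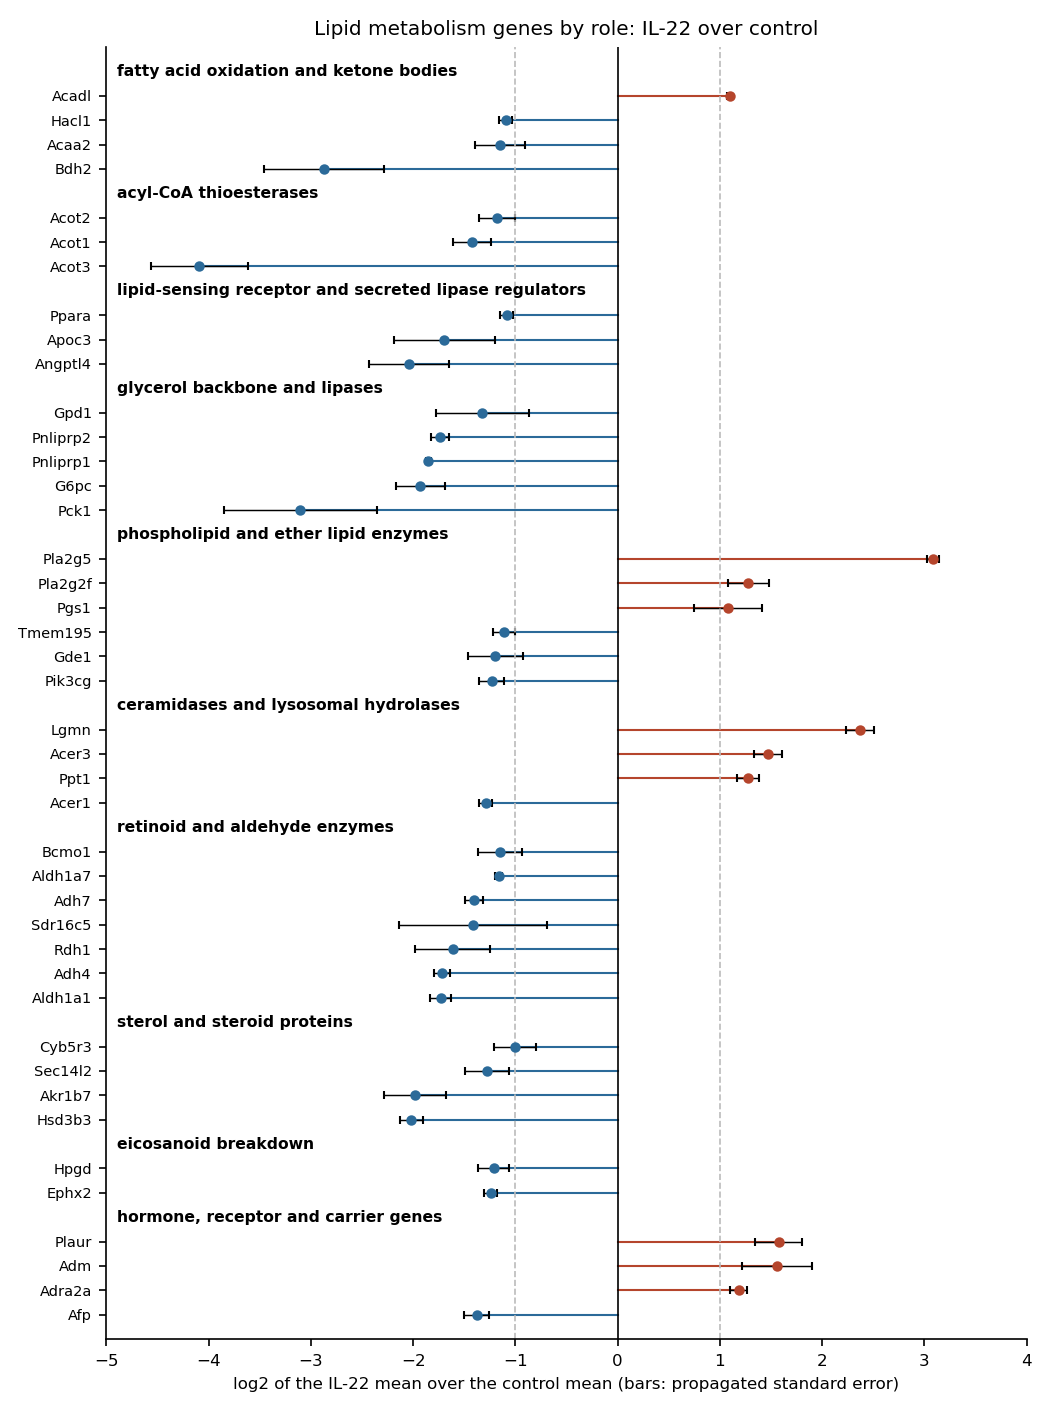
Log2 of the mean with IL-22 over that in controls for 42 lipid metabolism genes, grouped by role, with the standard error propagated from the authors' SEMs as horizontal bars and dashed lines at a 2-fold change. The largest difference in the lower direction is Acot3 at -4.09 ± 0.48 and in the higher direction Pla2g5 at 3.08 ± 0.06.

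Under the stricter adjustment 12 members stayed below 0.05. The 5 higher ones were Pla2g5, Acadl, Lgmn, Ppt1 and Adra2a, 11.6% of the members beside 13.6% of all listed genes that were higher and passed. The 7 lower ones were Pnliprp1, Aldh1a7, Ephx2, Ppara, Pnliprp2, Hacl1 and Hsd3b3, which is 16.3% of the members beside 7.97% of the listed genes. At least 4-fold differences were found in 2 higher members, Pla2g5 and Lgmn, and in 6 lower members, which include Acot3, Pck1, Bdh2, Angptl4 and Hsd3b3. The background was 13.2% of listed genes at least 4-fold higher and 13.8% at least 4-fold lower.

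**Figure D2:**
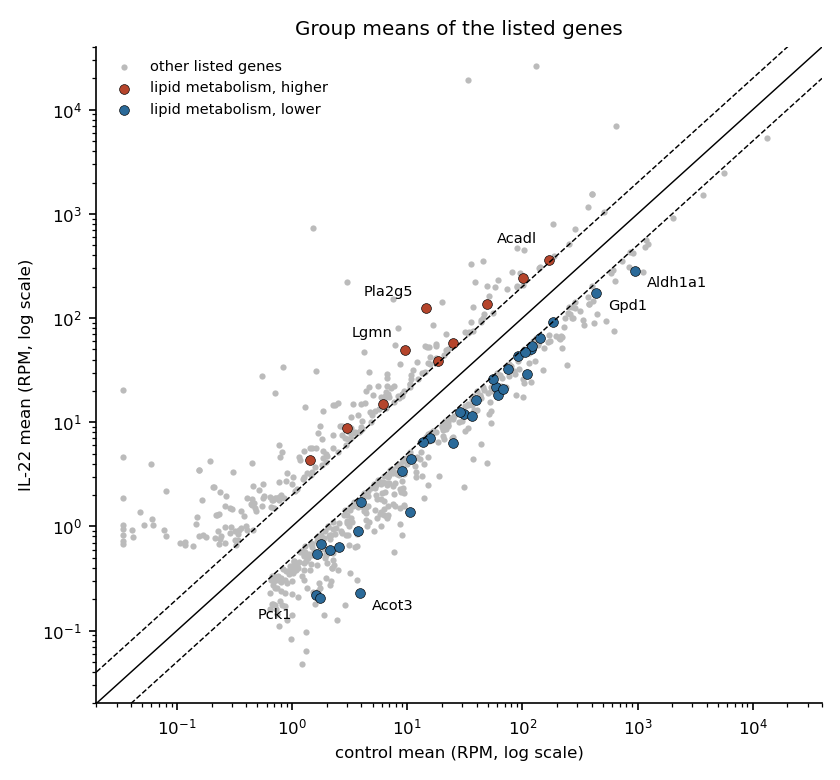
IL-22 mean against control mean (RPM, both axes logarithmic) for the 690 listed genes, with 647 in grey, the 10 higher members in red and the 33 lower members in blue. The solid line marks equal means and the dashed lines a 2-fold difference, and the empty band between them is the authors' selection of genes that differed at least 2-fold.

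The listed absorptive enterocyte markers moved in the same direction as the lower members. Of 8 such markers, Alpi, Apoa4 and Sis were listed as lower, with a summed level of 2958 RPM with IL-22 and 6564 RPM in controls, so that the cultures held enterocyte RNA in both groups, and the other 5 are not listed. Of 6 Paneth cell markers, Mmp7 and Mptx2 were listed as higher, at a summed 578 RPM with IL-22 and 84.1 RPM in controls. The other 4 Paneth cell markers are not listed. Of 4 tuft cell markers, Trpm5 and Pou2f3 were listed as lower, at a summed 6.41 RPM with IL-22 and 14.7 RPM in controls. The other 2 tuft cell markers are not listed. Also listed as lower were 2 of 5 hepatocyte genes, Alb and Ttr, at a summed 3.05 RPM with IL-22 and 11.1 RPM in controls. None of the 5 general epithelial, 5 goblet, 5 enteroendocrine, 8 haematopoietic, 10 adipocyte, mesenchymal or muscle and 5 endothelial or neural markers is listed, so their levels were not analysed here. The part of these shifts in cell type markers in the lipid gene values was not tested.

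Fatty acid oxidation was split between its enzymes. Acadl (Entrez 11363), the long-chain acyl-CoA dehydrogenase that takes the first step of mitochondrial beta-oxidation, was the only member of its role that rose. It was at 369 and 361 RPM in the IL-22 libraries, against 171 ± 2.64 RPM in controls. In the authors' deposited table it was 2.14-fold higher, with an adjusted p of 8.62e-05 and a stricter adjusted p of 0.00291. Acaa2 (Entrez 52538), the mitochondrial thiolase that ends each round of beta-oxidation, was at 63.2 and 45.6 RPM in the IL-22 libraries, against 121 ± 6.52 RPM in controls. The authors' deposited level was 2.22-fold lower with an adjusted p of 0.00654, and the stricter value was 0.208. Without the shallower IL-22 library its log2 ratio was -0.93, inside the 2-fold limit. Hacl1 (Entrez 56794), a peroxisomal lyase that shortens phytanic acid in alpha-oxidation, stood at 6.62 and 6.19 RPM in the IL-22 libraries, against 14.6, 13.2, 13.9 and 13.1 RPM in the control libraries. Its libraries spread little within either group. Its deposited level was 2.14-fold lower, with adjusted p-values of 0.00111 by the authors and 0.0353 by the stricter adjustment. Of its 31-base words in GENCODE M21 transcripts, 68.8% are found in no other gene, and the gene model Gm49387 shares part of the rest, so its reads may not all be its own.

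Bdh2 (Entrez 69772), a cytosolic 3-hydroxybutyrate dehydrogenase, was at 0.308 and 0.134 RPM in the IL-22 libraries, against 2.05, 1.62, 1.53 and 1.28 RPM in the control libraries. These levels rest on 14 IL-22 and 203 control reads, and the count ratio was 7.42-fold lower with a 95% exact conditional binomial interval of 4.32 to 13.8, which covers counting error only. The authors' adjusted p was 0.00727, and the IL-22 libraries lay 2.301-fold apart. Without the deeper of them the log2 ratio was -3.60, against -2.87 with both.

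All 3 listed genes of the Acot family, thioesterases that release free fatty acid from acyl-CoA, were lower. The ontology term acyl-CoA thioesterase activity also takes in Ppt1, described with the lysosomal genes, and counts 1 higher and 3 lower members beside 1 higher and 4 lower listed genes. Acot3 (Entrez 171281), the peroxisomal form, was at 0.154 and 0.301 RPM in the IL-22 libraries, against 3.55, 4.51, 4.01 and 3.44 RPM in the control libraries. It had the largest fold of any member in the authors' deposited table, 17.05-fold lower with an adjusted p of 0.00218. Only 14 IL-22 and 477 control reads lie behind it, with a count ratio 17.4-fold lower (95% interval 10.3 to 32.1). Acot1 (Entrez 26897), the cytosolic form, was at 24.4 and 19.6 RPM in the IL-22 libraries, against 65.9, 64.5, 50.04 and 55.5 RPM in the control libraries. Acot2, the mitochondrial form, which the file gives only by its Entrez number 171210, was at 7.82 and 6.19 RPM in the IL-22 libraries, against 16.95, 16.8, 14.9 and 15.01 RPM in the control libraries. In the authors' deposited table Acot1 was 2.68-fold lower (adjusted p 0.00566) and Acot2 2.27-fold lower (adjusted p 0.002597). The 3 genes share sequence with each other, and Acot3 also with Acot5. The share of 31-base words specific to the gene was 77.3% in Acot1, 62.7% in Acot2 and 76.9% in Acot3. Reads may therefore have been split between these genes, and the single values of the 3 are uncertain. Under the stricter adjustment none of the 3 passed, at 0.0693 for Acot3, 0.0826 for Acot2 and 0.18 for Acot1.

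The fatty acid receptor gene Ppara and both genes of secreted lipoprotein lipase inhibitors were lower. Ppara (Entrez 19013) was at 45.1 and 41.8 RPM in the IL-22 libraries, against 94.6, 94.2, 94.1 and 85.7 RPM in the control libraries. Neither group spread much, and the lowest control library was 1.9-fold above the higher IL-22 library. In the authors' deposited table Ppara was 2.12-fold lower, near the 2-fold limit of the list, with an adjusted p of 0.00102. Its stricter adjusted p was 0.0327. Angptl4 (Entrez 57875), a secreted inhibitor of lipoprotein lipase, was at 1.14 and 0.669 RPM in the IL-22 libraries, against 3.69, 4.26, 2.99 and 3.97 RPM in the control libraries. These levels rest on 57 IL-22 and 457 control reads, for a count ratio 4.101-fold lower (95% interval 3.11 to 5.5). The authors' adjusted p was 0.00524, and the stricter one 0.167. Apoc3 (Entrez 11814), an apolipoprotein of triglyceride-rich lipoproteins that also inhibits the lipase, was at 15.2 and 7.53 RPM in the IL-22 libraries, against 41.8, 39.1, 31.6 and 34.8 RPM in the control libraries, with the IL-22 libraries 2.02-fold apart. The authors' deposited values were 3.24-fold lower with an adjusted p of 0.00597. With unequal variances the adjusted p was 0.0541, and without the deeper IL-22 library the log2 ratio was -2.29, against -1.69 with both.

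Genes that supply the glycerol backbone or release glucose were lower, at quite different read depths. Gpd1 (Entrez 14555), which makes glycerol 3-phosphate from a glycolytic intermediate, was at 226 and 122 RPM in the IL-22 libraries, against 436 ± 42.9 RPM in controls. Its IL-22 libraries lay 1.85-fold apart, and the deposited 2.51-fold lower level had an adjusted p of 0.0222, with 0.706 under the stricter adjustment. Its adjusted p was 0.0546 without the deeper IL-22 library, 0.117 without the shallower one and 0.0574 with unequal variances. Pck1 (Entrez 18534), the cytosolic phosphoenolpyruvate carboxykinase of gluconeogenesis and glyceroneogenesis, was at 0.308 and 0.1004 RPM in the IL-22 libraries, against 1.78, 1.65, 2.19 and 1.41 RPM in the control libraries. It rests on 13 IL-22 and 215 control reads and was 8.46-fold lower by counts (95% interval 4.84 to 16.1), with an authors' adjusted p of 0.00597. Without the deeper IL-22 library its log2 ratio was -4.13 and without the shallower one -2.51, against -3.10 with both. The value of -4.13 rests on 3 IL-22 reads, at the floor of the shallower library. G6pc (Entrez 14377), the catalytic subunit of glucose-6-phosphatase, was at 33.1 and 24.3 RPM in the IL-22 libraries, against 116, 106, 125 and 90.7 RPM in the control libraries. For G6pc the authors' deposited level was 3.81-fold lower and the adjusted p was 0.00435, against 0.139 by the stricter adjustment.

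Both pancreatic lipase-related genes were lower and both passed the stricter adjustment. Pnliprp2 (Entrez 18947), which digests galactolipids and triglycerides, was at 17.4 and 19.4 RPM in the IL-22 libraries, against 63.9, 63.98, 62.2 and 55.6 RPM in the control libraries. The deposited table gave 3.34-fold lower with an adjusted p of 0.00103, and the stricter value was 0.03299. Pnliprp1 (Entrez 18946), a relative with little lipase activity of its own, was at 0.585 and 0.602 RPM in the IL-22 libraries, against 2.19, 2.16, 2.12 and 2.12 RPM in the control libraries. Its log2 ratio had the smallest standard error of all members, at -1.85 ± 0.02, and the stricter adjusted p was 0.00179. The authors' deposited level was 3.61-fold lower, with an adjusted p printed as 0. With 37 IL-22 and 262 control reads, counting error alone gave a wider interval than the library spread, 2.56 to 5.26-fold lower.

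**Figure D3:**
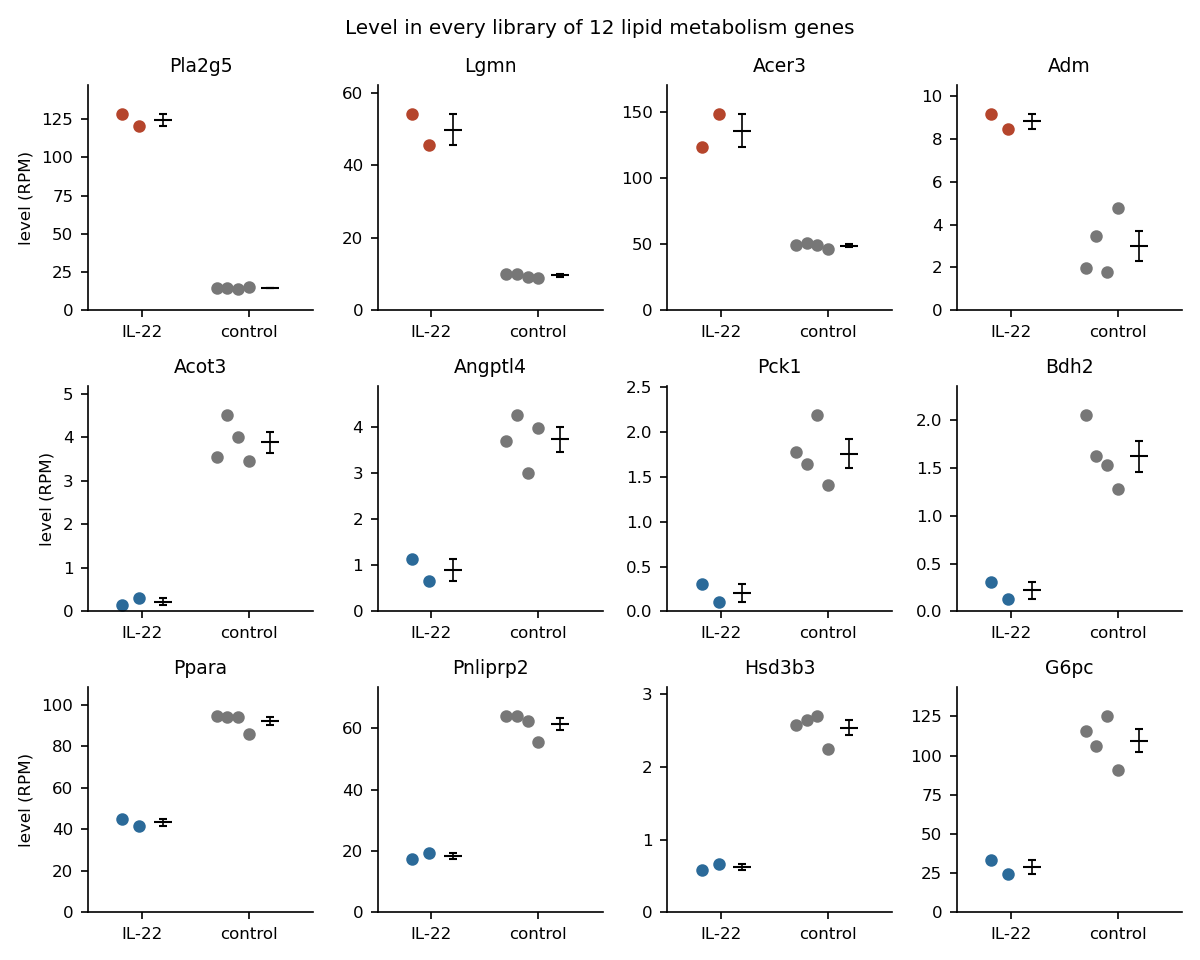
Level (RPM, linear axes from 0) in every library for 4 higher genes (top row) and 8 lower genes, with the 2 IL-22 libraries in colour left of the 4 control libraries in grey, each in order of falling depth. Dashes with bars are the authors' group means ± SEM. In every panel the groups are apart, which the authors' selection forces, by the largest fold for Acot3 and Pla2g5.

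Phospholipid enzymes went both ways. Pla2g5 (Entrez 18784), a secreted phospholipase A2 that frees fatty acids from phosphatidylcholine, was at 128 and 120.1 RPM in the IL-22 libraries, against 14.7, 14.8, 13.8 and 15.2 RPM in the control libraries. The lower IL-22 library was 7.91-fold above the highest control library. The authors' deposited ratio, 8.49-fold higher, was the largest among the higher members, with an adjusted p of 8.62e-05 and a stricter one of 0.00291. Pla2g2f (Entrez 26971), another secreted phospholipase A2, was at 17.1 and 13.1 RPM in the IL-22 libraries, against 5.71, 6.95, 5.98 and 6.23 RPM in the control libraries. The authors' deposited table gave 2.42-fold higher with an adjusted p of 0.00481, which was 0.148 with unequal variances. The 2 genes lie on chromosome 4 with Pla2g2d between them, which is not listed. Pgs1 (Entrez 74451), which makes phosphatidylglycerophosphate, the precursor of cardiolipin, was at 47.1 and 30.3 RPM in the IL-22 libraries, against 21.1, 20.3, 15.1 and 16.9 RPM in the control libraries. The nearest libraries of the 2 groups were 1.44-fold apart, and the deposited 2.11-fold higher level had an adjusted p of 0.0222 and a stricter value of 0.706. Leaving out any 1 control library gave Pgs1 an adjusted p between 0.0507 and 0.06001, unequal variances gave 0.243, and without the deeper IL-22 library its log2 ratio was 0.72, inside the 2-fold limit.

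The other 3 genes of this role were lower, by 2.16 to 2.35-fold in the authors' deposited table. Tmem195 (Agmo), the monooxygenase that cleaves ether lipids, was at 24.4 and 27.5 RPM in the IL-22 libraries, against 57.8, 56.7, 60.5 and 49.2 RPM in the control libraries. Gde1, a phosphodiesterase of glycerophosphodiesters, was at 14.7 and 10.5 RPM in the IL-22 libraries, against 34.3, 31.2, 26.99 and 23.3 RPM in the control libraries. Their adjusted p-values by the authors were 0.00335 for Tmem195 and 0.01495 for Gde1. Without the shallower IL-22 library the adjusted p of Gde1 was 0.0827. Pik3cg, the catalytic subunit of phosphoinositide 3-kinase gamma, was at 1.602 and 1.81 RPM in the IL-22 libraries, against 3.44, 4.31, 4.52 and 3.75 RPM in the control libraries, with an adjusted p by the authors of 0.00611.

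The 2 listed alkaline ceramidases, which cut ceramide into sphingosine and fatty acid, moved in opposite directions. Acer3 (Entrez 66190) was at 123 and 148 RPM in the IL-22 libraries, against 49.3, 50.8, 49.7 and 46.01 RPM in the control libraries. Acer1 (Entrez 171168) was at 4.37 and 4.42 RPM in the IL-22 libraries, against 9.65, 11.8, 10.4 and 11.2 RPM in the control libraries. In the authors' deposited table Acer3 was 2.77-fold higher (adjusted p 0.00167) and Acer1 2.44-fold lower (adjusted p 0.002699). Neither passed the stricter adjustment, at 0.0532 for Acer3 and 0.0858 for Acer1, and with unequal variances the adjusted p of Acer3 was 0.104. Unique 31-base words made up 94.2% of Acer3 and 93.8% of Acer1.

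Both lysosomal hydrolases of the set were higher. Lgmn (Entrez 19141), the asparaginyl endopeptidase legumain, carries the terms steroid and fat-soluble vitamin metabolic process and was at 54.2 and 45.6 RPM in the IL-22 libraries, against 10.2, 10.2, 9.34 and 8.92 RPM in the control libraries. Its groups lay 4.48-fold apart at the nearest libraries. The authors' deposited 5.17-fold higher level had an adjusted p of 0.000923 and a stricter one of 0.0294. Ppt1 (Entrez 19063), the thioesterase that removes palmitate from proteins, was at 227 and 258 RPM in the IL-22 libraries, against 100.3 ± 4.08 RPM in controls. The deposited ratio was 2.42-fold higher, with an adjusted p of 0.00135 and a stricter one of 0.04299. Unequal variances gave adjusted p-values of 0.0827 for Lgmn and 0.0692 for Ppt1.

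The 7 retinoid and aldehyde enzymes were all lower, by 2.22 to 3.32-fold in the authors' deposited table. Retinal is reached by 2 routes, since Bcmo1 (Bco1) cleaves beta-carotene to retinal and Rdh1, Sdr16c5, Adh4 and Adh7 can oxidise retinol to it, and Aldh1a1 then oxidises retinal to retinoic acid. The promoters of 3 of them are shown because Aldh1a1 and its neighbour Aldh1a7 share a long stretch there and because Bcmo1 held the only match among the members to a receptor motif. Each is the 250 bases before the RefSeq start of the gene in GRCm38.p6, 5′ to 3′ on the strand of the gene (for Aldh1a1, 1 of 2 starts): chr8:117095615-117095864 on the plus strand for Bcmo1, chr19:20601718-20601967 on the plus strand for Aldh1a1 and chr19:20727557-20727806 on the minus strand for Aldh1a7. Capitals in Bcmo1 mark the reverse complement of a direct repeat of AGGTCA with 1 base between the copies, the arrangement bound by PPAR and HNF4 receptors, 44 to 56 bases before the start, and capitals in the Aldh1a pair mark the 65 bases that are identical, 30 to 94 bases before the start.
Bcmo1: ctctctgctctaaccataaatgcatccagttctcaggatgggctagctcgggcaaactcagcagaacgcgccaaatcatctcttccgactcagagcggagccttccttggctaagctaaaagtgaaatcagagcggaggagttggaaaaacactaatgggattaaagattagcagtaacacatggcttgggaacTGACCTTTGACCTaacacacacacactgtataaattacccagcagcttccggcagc
Aldh1a1: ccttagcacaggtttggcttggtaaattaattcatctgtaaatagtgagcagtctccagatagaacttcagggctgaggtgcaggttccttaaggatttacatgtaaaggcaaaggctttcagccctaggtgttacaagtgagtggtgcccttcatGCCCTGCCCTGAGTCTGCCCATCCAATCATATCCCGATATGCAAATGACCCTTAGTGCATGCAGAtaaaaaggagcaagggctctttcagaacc
Aldh1a7: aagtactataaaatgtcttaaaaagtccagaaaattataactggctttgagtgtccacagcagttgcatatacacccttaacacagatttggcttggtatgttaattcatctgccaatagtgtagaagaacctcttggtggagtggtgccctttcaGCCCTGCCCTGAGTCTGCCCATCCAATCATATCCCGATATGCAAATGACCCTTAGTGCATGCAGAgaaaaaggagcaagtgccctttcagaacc

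Genes of carotene cleavage and of retinoic acid formation were both lower with IL-22. Bcmo1 (Entrez 63857) was at 72.9 and 55.1 RPM in the IL-22 libraries, against 142 ± 7.06 RPM in controls. Aldh1a1 (Entrez 11668) was at 284 and 285 RPM in the IL-22 libraries, against 944 ± 65.9 RPM in controls. The IL-22 libraries of Aldh1a1 differed by less than 1%, and the authors' deposited values were 3.32-fold lower for Aldh1a1 (adjusted p 0.00503) and 2.22-fold lower for Bcmo1 (adjusted p 0.00524). Without the shallower IL-22 library the log2 ratio of Bcmo1 was -0.96, inside the 2-fold limit. Aldh1a7 (Entrez 26358), a closely related mouse aldehyde dehydrogenase, was at 47.2 and 46.8 RPM in the IL-22 libraries, against 105 ± 2.501 RPM in controls. It was the only gene of this role that passed the stricter adjustment, at 0.0276, after a deposited 2.24-fold lower level with an adjusted p of 0.000871. Unique 31-base words made up 94.3% of Aldh1a1 and 86.2% of Aldh1a7.

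The retinol-oxidising genes were lower as well. Adh4, a class II alcohol dehydrogenase, was at 21.3 and 20.1 RPM in the IL-22 libraries, against 74.7, 66.9, 70.98 and 59.8 RPM in the control libraries. Adh7, the class IV enzyme, was at 3.48 and 3.35 RPM in the IL-22 libraries, against 9.51, 9.08, 9.92 and 7.64 RPM in the control libraries. The IL-22 libraries of each gene were close, and the control libraries spanned 1.25-fold for Adh4 and 1.30-fold for Adh7. In the authors' deposited table Adh4 was 3.29-fold lower (adjusted p 0.00219) and Adh7 2.65-fold lower (adjusted p 0.00384). Their stricter adjusted p-values were 0.0696 and 0.122. Rdh1, which the file gives only by its Entrez number 107605, was at 0.678 and 0.402 RPM in the IL-22 libraries, against 1.695, 1.73, 1.64 and 1.55 RPM in the control libraries, from 34 IL-22 and 203 control reads and with 72.8% of its 31-base words unique. Sdr16c5 was at 0.339 and 1.004 RPM in the IL-22 libraries, against 1.94, 1.901, 2.01 and 1.32 RPM in the control libraries, from 41 IL-22 and 223 control reads. Sdr16c5 had the narrowest gap of all resolved members, 1.32-fold between the higher IL-22 and the lowest control library. The authors' adjusted p-values were 0.00184 for Rdh1 and 0.0231 for Sdr16c5, and with unequal variances they were 0.0757 and 0.145. Sdr16c5 also had adjusted p-values of 0.0605 to 0.0627 without any 1 of the 3 deeper control libraries and 0.111 without the deeper IL-22 library, and its log2 ratio was -2.40 without the shallower IL-22 library, against -1.42 with both.

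All 4 sterol and steroid genes were lower. Hsd3b3 (Entrez 15494), a 3-beta-hydroxysteroid dehydrogenase that the file gives without a symbol, was at 0.585 and 0.669 RPM in the IL-22 libraries, against 2.57, 2.64, 2.699 and 2.25 RPM in the control libraries. It rests on 39 IL-22 and 312 control reads, and the count ratio was 4.09-fold lower (95% interval 2.93 to 5.86). The authors' deposited level was 4.05-fold lower with an adjusted p of 0.00135, and the stricter adjusted p was 0.04299. Unique 31-base words made up 90.2% of Hsd3b3, and Hsd3b2 and Hsd3b6 share part of the rest, so its reads may not all be its own. Akr1b7 (Entrez 11997), an aldo-keto reductase that reduces lipid aldehydes and whose title in the file names another member of the family, was at 7.36 and 5.22 RPM in the IL-22 libraries, against 31.3, 22.3, 28.1 and 17.9 RPM in the control libraries. Both of its groups varied, and the deposited 3.96-fold lower level had an adjusted p of 0.0164 and a stricter one of 0.523, with 89.9% of its 31-base words unique. The adjusted p of Akr1b7 was 0.0659 without the deeper IL-22 library and 0.0839 without the shallower one. Cyb5r3 (Entrez 109754), whose reductase passes electrons to desaturases and sterol synthesis, was at 103 and 79.6 RPM in the IL-22 libraries, against 183 ± 10.1 RPM in controls. At 2.01-fold lower (adjusted p 0.00793) it lay closest of all members to the 2-fold limit of the authors' deposited list, and without the shallower IL-22 library its log2 ratio was -0.83, inside that limit. Sec14l2, a lipid-binding protein that stimulates cholesterol synthesis, was at 18.6 and 14.2 RPM in the IL-22 libraries, against 45.1, 39.4, 41.9 and 32.6 RPM in the control libraries, with an adjusted p by the authors of 0.00763.

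Both genes of eicosanoid breakdown were lower. Ephx2 (Entrez 13850), the soluble epoxide hydrolase that turns epoxy fatty acids into diols, was at 52.2 and 48.7 RPM in the IL-22 libraries, against 119 ± 3.05 RPM in controls. The authors' deposited level was 2.36-fold lower with an adjusted p of 0.000966, and the stricter value was 0.0308. Hpgd (Entrez 15446), which inactivates prostaglandins, was at 30.1 and 35.1 RPM in the IL-22 libraries, against 80.7, 71.2, 86.99 and 63.7 RPM in the control libraries. For Hpgd the deposited 2.32-fold lower level had an adjusted p of 0.00794.

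The remaining 4 members encode a hormone, receptors and a carrier and no lipid enzyme. Adra2a (Entrez 11551), the alpha-2A adrenergic receptor, which restrains lipolysis in fat cells, was at 58.9 and 55.6 RPM in the IL-22 libraries, against 23.8, 25.1, 23.2 and 28.9 RPM in the control libraries. The authors' deposited table gave 2.27-fold higher for Adra2a with an adjusted p of 0.000949 and a stricter one of 0.0303. Adm (Entrez 11535), the peptide hormone adrenomedullin, was at 9.15 and 8.47 RPM in the IL-22 libraries, against 1.97, 3.46, 1.79 and 4.77 RPM in the control libraries. Plaur (Entrez 18793), the lipid-anchored urokinase receptor, was at 4.16 and 4.45 RPM in the IL-22 libraries, against 1.18, 1.84, 0.948 and 1.81 RPM in the control libraries. Both had uneven control libraries. Their adjusted p-values by the authors were 0.00807 for Adm, at 2.94-fold higher, and 0.00325 for Plaur, at 2.98-fold higher. Afp (Entrez 11576), the fetal plasma carrier alpha-fetoprotein, was the lower one, at 12.4 and 11.6 RPM in the IL-22 libraries, against 34.3, 33.6, 23.7 and 33.03 RPM in the control libraries. Its deposited level was 2.604-fold lower with an adjusted p of 0.00931, which was 0.053 without the shallower IL-22 library.

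Across the 43 members the IL-22 libraries agreed within 1.1-fold in 15 genes and lay more than 1.5-fold apart in 9, with a median of 1.19-fold. The deeper IL-22 library was above the shallower one in 7 of the 10 higher and 23 of the 33 lower members, beside 50.6% of the higher and 60.05% of the lower listed genes. Among the 34 members with control values per library, the highest control was a median of 1.31 times the lowest, and in 7 it was more than 1.5 times the lowest. The shallowest control library was the lowest of the 4 in 17 of 26 lower members (65.4%), beside 52.4% of the 351 lower listed genes with such values. The IL-22 and control libraries of no member overlapped, which the authors' selection on p forces for every listed gene, and in 14 of 34 members the nearest libraries were less than 2-fold apart.

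**Figure D4:**
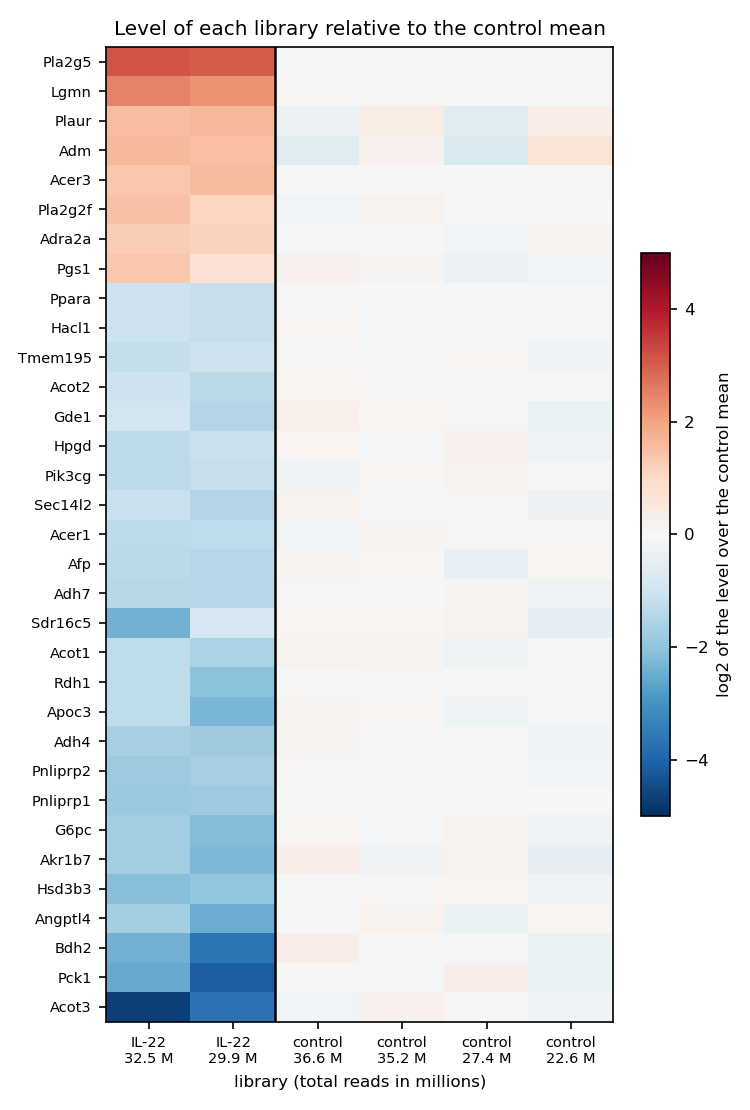
Log2 level of each library relative to the control mean for 33 lipid metabolism genes with a value in every library, with the 2 IL-22 libraries left of the 4 control libraries and the depth of each below its column. Genes run from the largest increase at the top to the largest decrease at the bottom, and the IL-22 columns differ visibly from each other in Sdr16c5, Pck1, Bdh2, Apoc3 and Angptl4.

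Several members are chromosomal neighbours. In RefSeq gene order 7 pairs lay with at most 3 genes between them: Pla2g5 and Pla2g2f on chromosome 4, the 3 pairs among Acot1, Acot2 and Acot3 on chromosome 12, Adh4 and Adh7 on chromosome 3, and Aldh1a1 with Aldh1a7 and Pnliprp1 with Pnliprp2 on chromosome 19. The members of all 7 pairs moved in the same direction, although the 3 Acot pairs come from the same 3 genes and are not independent. Of the pairs of listed genes next to each other, 95 of 103 (92.2%) did so. That distance is narrower than the one allowed for the member pairs. Besides the 65 bases of the Aldh1a pair printed above, the longest run shared by the promoters of a pair was 7 to 12 bases.

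RefSeq promoter windows, 250 bases before to 50 after each start, were matched to 35 of the 43 members and searched on both strands for 3 motifs, with a gene counted once over all its starts. The repeat of AGGTCA with any 1 base between the copies occurred in 1 of 35 (2.86%), in Bcmo1. Bcmo1 was also the only 1 of 534 listed genes that held it (0.187%), beside 13 of 27025 genes with a window (0.0481%). A single match is too few to compare these shares. The STAT motif TTCNNNGAA occurred in 1 of 35, in Tmem195, beside 9.74% of listed genes and 9.55% of all genes. TATAAA, the core of the TATA box, occurred in 8 of 35 (22.9%), namely Lgmn, Adra2a, Bcmo1, Aldh1a7, Hpgd, Afp, Adh7 and G6pc, beside 20.8% of listed genes and 15.7% of all genes.

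Other ontology terms of the members differed in their split between directions. Isoprenoid metabolic process was carried by 8 members, all lower, as were all 13 listed genes with that term. Oxidation-reduction process was carried by 20 members, of which 1, Acadl, was higher and 19 were lower, and 84.9% of the 86 listed genes with that term were lower. Fatty acid metabolic process was carried by 2 higher and 12 lower members, beside 3 higher and 23 lower listed genes. Hydrolase activity was more even, with 5 higher and 10 lower members beside 34 higher and 60 lower listed genes. Steroid metabolic process counted 3 higher members, Lgmn, Adm and Acadl, and 9 lower ones, beside 3 higher and 14 lower listed genes. The extracellular region counted 5 higher and 5 lower members beside 52 higher and 55 lower listed genes.

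Across 15 lists of lipid pathway genes with 354 distinct genes, 4 were listed as higher and 26 as lower in the authors' deposited table. These 30 genes are 8.47% of the lists, beside 690 genes listed in all for 21951 protein-coding genes. Of all 690 listed genes, 61.3% were lower. The lists were chosen with earlier results of these data known, and 22 of the 43 members are in none of them. These shares are therefore no independent comparison. The other 324 genes of the lists were not listed in the deposited table, which does not show that they were unchanged. Of 33 fatty acid oxidation genes, 1 was listed as higher and 3 as lower (Acaa2, Hacl1 and the peroxisomal thiolase gene Acaa1b). Of 20 genes of fatty acid uptake and activation, Fabp2 and Slc27a2 were listed as lower, and of 22 genes of fatty acid synthesis, elongation and desaturation only Me1, also lower. Of 29 triglyceride, lipid droplet and lipoprotein genes, Apoa4 and Apoc3 were listed as lower. Of 42 genes of phospholipases and phospholipid synthesis, Pla2g5 and Pla2g2f were listed, both higher. None of these lists holds the other members of the phospholipid role, of which Pgs1 was higher and Tmem195, Gde1 and Pik3cg were lower. None of 21 cholesterol synthesis genes and none of 32 phosphoinositide genes was listed. Of 26 genes of steroid, bile acid and vitamin D enzymes, Hsd3b3, Akr1b7, Akr1c14 and Akr1c19 were listed as lower, and of 20 eicosanoid enzyme genes Hpgd, Ephx1 and Ephx2.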

How the data were processed

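Single-read RNA-seq of polyadenylated RNA came from 6 enteroid wells. Per the submitters' processing notes, BWA 0.5.9 and Picard 1.58 were used, and the sources used here name neither build, annotation nor counter. The authors deposited a table of 690 selected genes with group means in RPM (a unit inferred from the values), standard errors, mean read counts (expected counts), ratios (IL-22 over control) and p-values. The authors' p-values were recomputed from means and standard errors as a pooled-variance comparison, to within 1.07e-06. Each listed gene differed at least 2-fold, at p of at most 0.0239 and at least 20 mean reads in the higher group, so absence from the list does not show lack of change.

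Depths were fitted by least squares to the deposited means, standard errors and mean read counts. Whole reads (tolerance 0.01) were found in 593 of 593 genes for the IL-22 libraries. Control reads were searched in 646 genes (relative tolerance 1e-07), with 1 set in 589, several in 57 and none in 0, and 44 genes were not searched. The search recovered simulated reads. edgeR 4.0.16 (R 4.3.3) was run on the recovered reads as an alternative, and the design's fit to deposited counts per sample could not be made. Python 3.11.15, numpy 2.4.6 and SciPy 1.17.1 did the rest. At 3 reads, the floor is 0.0924 and 0.1004 RPM in the IL-22 libraries and 0.082 to 0.132 RPM in the controls. Members, lists and roles were chosen with earlier results of these data known. Members were matched to RefSeq (GRCm38.p6) by Entrez number (43 of 43), and word uniqueness and the 21951 protein-coding genes are from GENCODE M21. Full values were given for the 10 largest changes per direction and the 5 highest levels per direction. Also included were members passing the stricter adjustment and the only member of a direction in a role. So were the 3 nearest the 2-fold limit per direction. Some members with few reads have a count ratio in place of the deposited fold. The other members are given more briefly. No source used here states whether counting used the strand, so overlapping antisense genes cannot be told apart. Some genes that these rules take in are not reported here, although they stay in the counts of members.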

Additional observations from a re-analysis of the deposited data

Results flagged for a closer look

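Among the 34 lipid metabolism genes with a value in each of the 4 control libraries, 3 had a control library far from the others, by Dixon's ratio of the gap to the range, and chance flags about 1 in 20 groups. Ppara was at 85.7 RPM in the shallowest control library, with the next at 94.1 RPM. Sdr16c5 was at 1.32 RPM in that same library, with the next at 1.901 RPM. Afp was at 23.7 RPM in the third deepest control library, with the next at 33.03 RPM. In all 3 genes the low control library stood above both IL-22 libraries, which the authors' selection on p forces for every listed gene.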

How the results depend on the processing

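No paired analysis was possible because values in the table are not tied to a mouse or well, so no fit with a replicate block was made, and DESeq2 and limma were not run. Against 10 higher and 33 lower members as deposited, a 4-fold limit kept 2 and 6, adjustment over all protein-coding genes 5 and 7, and 5 RPM added to both means 6 and 17. With unequal variances 5 higher and 29 lower members stayed under an adjusted 0.05, and Acer3, Apoc3, Gpd1, Lgmn, Pgs1, Pla2g2f, Ppt1, Rdh1 and Sdr16c5 did not. The cause was not tested. The median log2 ratio was -1.12 with 1 RPM added and -0.76 with 5 RPM added, against -1.24; adding a constant shrinks low genes by construction. Leaving out 1 library gave 7 to 10 higher and 25 to 30 lower members, with fewer members testable (8 and 26) where a control was left out. Without the deeper IL-22 library Akr1b7, Gpd1, Pgs1 and Sdr16c5 were lost, and without the shallower one Acaa2, Afp, Akr1b7, Bcmo1, Cyb5r3, Gde1 and Gpd1. A lone IL-22 library was given the spread of the controls. Pgs1 was lost without any 1 of the controls, and Sdr16c5 without any but the shallowest. edgeR on recovered reads, added after seeing the data, called 8 of 8 and 26 of 26 members and 588 of 588 genes, which the authors' selection forces. No alternative reversed a direction. Depth limits the members with few reads, such as Pck1 and Acot3. A limit of 10 mean reads in each group kept 10 higher and 30 lower members and lost Acot3, Bdh2 and Pck1.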
